A study of Mus musculus with 8 samples.

Results

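The chemokines Cxcl1, Cxcl2, Cxcl9, Cxcl10, Cxcl12, Cxcl13, Cxcl16 and Ccl19 were followed in spleen and lymph node samples of mice with and without the gene Aire. Members were all probe sets (groups of short probes on an Affymetrix array) whose single gene symbol in the platform annotation was one of these 8 names. Of the 34945 probe sets with exactly 1 symbol, 14 belonged to 7 of the 8 genes, and 6 of these genes were among the 11557 genes tested. Cxcl12 had signals too low on every array to be tested. Ccl19 was carried only by a probe set that the annotation pairs with 10 symbols, so no value is given for it.

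The 8 arrays fell into 4 groups of 2: Aire-knockout spleen, Aire-wild-type spleen, Aire-knockout lymph node and Aire-wild-type lymph node, with the arrays of a group named A and B. The study asked about cells that express Aire outside the thymus. The labels name only the tissue, the genotype and the letter. They give no strain, age, sex, treatment, sorted cell type, design of the knockout allele, or number of animals per array, and do not say whether A and B came from separate animals. Within every group A and B differed in Xist or in the Y-linked gene Eif2s3y, with values given below, so they were not repeats of 1 RNA sample.

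Chemokines are small secreted proteins that direct the migration of leukocytes through G protein-coupled receptors. Cxcl1 and Cxcl2 recruit neutrophils through Cxcr2. Cxcl9 and Cxcl10 are induced by interferons and attract activated T cells and natural killer cells through Cxcr3. The homeostatic chemokines organise lymphoid tissue: Cxcl13 draws B cells into follicles through Cxcr5, Ccl19 draws T cells and mature dendritic cells into T cell zones through Ccr7, and Cxcl12 retains cells through Cxcr4. Cxcl16 is made as a membrane-bound protein of antigen-presenting cells, is shed by the protease Adam10, and is sensed by Cxcr6.

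Promoter windows of the neutrophil-recruiting pair and of the interferon-inducible pair are shown because the members of each pair are compared with each other below. Each line gives 250 bases before to 50 after the annotated start, 5′ to 3′ on the gene's strand, from RefSeq on GRCm38.p6. Capitals mark matches on either strand to a form of the NF-kB site (GGG, any 2 bases, TTTCC) or to the core of the interferon response element (GAAA, any 2 bases, GAAA).
Cxcl1, chr5:90890995-90891294, + strand: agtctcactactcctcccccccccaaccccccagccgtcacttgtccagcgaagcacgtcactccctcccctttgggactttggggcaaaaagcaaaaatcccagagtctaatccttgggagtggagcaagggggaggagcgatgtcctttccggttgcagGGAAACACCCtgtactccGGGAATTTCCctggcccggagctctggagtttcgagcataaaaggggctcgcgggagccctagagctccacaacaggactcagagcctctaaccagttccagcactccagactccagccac
Cxcl2, chr5:90903649-90903948, + strand: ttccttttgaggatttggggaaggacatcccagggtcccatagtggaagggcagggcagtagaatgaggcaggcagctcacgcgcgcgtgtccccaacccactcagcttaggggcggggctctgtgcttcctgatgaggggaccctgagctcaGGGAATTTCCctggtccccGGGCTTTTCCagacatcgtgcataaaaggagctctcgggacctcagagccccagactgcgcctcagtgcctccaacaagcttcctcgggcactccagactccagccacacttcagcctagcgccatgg
Cxcl9, chr5:92328030-92328329, - strand: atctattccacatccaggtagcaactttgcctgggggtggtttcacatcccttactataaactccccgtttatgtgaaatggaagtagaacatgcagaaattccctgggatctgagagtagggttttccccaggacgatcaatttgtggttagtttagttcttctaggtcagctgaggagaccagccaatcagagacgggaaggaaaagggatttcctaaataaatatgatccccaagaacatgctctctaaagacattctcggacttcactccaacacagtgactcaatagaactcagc
Cxcl10, chr5:92348840-92349139, - strand: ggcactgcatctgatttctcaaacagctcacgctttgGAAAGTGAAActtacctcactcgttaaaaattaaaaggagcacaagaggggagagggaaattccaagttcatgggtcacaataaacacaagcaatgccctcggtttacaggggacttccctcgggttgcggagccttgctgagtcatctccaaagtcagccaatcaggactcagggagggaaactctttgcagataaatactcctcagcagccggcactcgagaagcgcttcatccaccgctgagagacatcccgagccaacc

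The Cxcl1 window held GGGAATTTCC from -71 to -62 relative to the start, and GGAAACACCC, a match on the opposite strand, from -89 to -80. The Cxcl2 window held the same GGGAATTTCC from -97 to -88, and GGGCTTTTCC from -78 to -69. A match to this NF-kB form was present in 1.63% of 32851 promoter windows of the same length. The Cxcl10 window held GAAAGTGAAA from -213 to -204, a motif present in 3.44% of all windows. The Cxcl9 window held neither motif. These are matches of letters only, and other forms of the NF-kB site were not searched.

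The arrays were first compared in what the labels state. Aire had signals of 1009 and 2376 in knockout spleen, against 5038 and 5204 in wild-type spleen, and of 791 and 1137 in knockout lymph node, against 3052 and 3535 in wild-type lymph node. It was thus lower on all 4 knockout arrays, while its limma adjusted p for the averaged difference of -1.76 was 0.237. Median signal per array ran from 53.8 to 65.3. Of 7 spleen-associated genes 4 were tested, and Slc40a1, Hmox1, Spic and Vcam1 had positive spleen minus lymph node differences on the log2 scale of 2.82, 1.10, 0.68 and 0.43, of which 0 passed adjustment. The other 3, the stromal identity genes Tlx1, Nkx2-5 and Tcf21, lay under the filter level of 59.0 on every array. Of 7 vessel genes associated with lymph node 4 were tested, Flt4 with a difference of -1.19 and Lyve1, Prox1 and Glycam1 with -0.08, 0.00 and -0.03. Chst4 lay under the floor of 9.58 on all arrays. Ccr7, the receptor for Ccl19 and a marker of mature dendritic cells and naive T cells, had signals from 8241 to 14752 over the 8 arrays, and the actin-bundling protein Fscn1 of mature dendritic cells from 9491 to 12476. Xist, made by the inactive X chromosome, had signals of 14.6 and 23.1 on the knockout B arrays of spleen and lymph node, whereas Eif2s3y, on the Y chromosome, had 21.2 and 3.80 on the wild-type A arrays. On the other 4 arrays both genes had signals of at least 521. These patterns were alike in the spleen and lymph node arrays of the same genotype and letter. Low Xist was thus found only on knockout arrays and low Eif2s3y only on wild-type arrays. The genotypes were therefore not matched in sex-linked signal, which limits every knockout minus wild-type difference below.

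The first comparison asked how the 8 chemokines differed between knockout and wild-type arrays. Cxcl9, Cxcl13, Cxcl10 and Cxcl2 had positive knockout minus wild-type differences in both tissues, and Cxcl1 and Cxcl16 had negative ones in both. Averaged over tissues, Cxcl9 stood at 3.28-fold and Cxcl13 at 3.22-fold the wild-type level. None of the 6 tested members passed at a limma adjusted p under 0.05 in spleen, in lymph node or averaged, where 0% of all 11557 genes did. The lowest adjusted p among the members was 0.594, that of Cxcl9 for the averaged difference.

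At an unadjusted p under 0.05, 0 of the 6 members were found in spleen, where 8.42% of all genes were, and 1 in lymph node, where 3.38% were. That 1 was Cxcl9, which was also the only member at this level for the averaged difference, against 8% of all genes. The median difference of the 6 members was 0.50 in spleen, 0.38 in lymph node and 0.44 averaged, where the medians over all genes were -0.09, -0.03 and -0.06. Signals below are on the authors' linear scale after each array was shifted to a common median. Differences are knockout minus wild-type on the log2 scale, with the standard error (SE) of the limma fit.

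**Figure D1:**
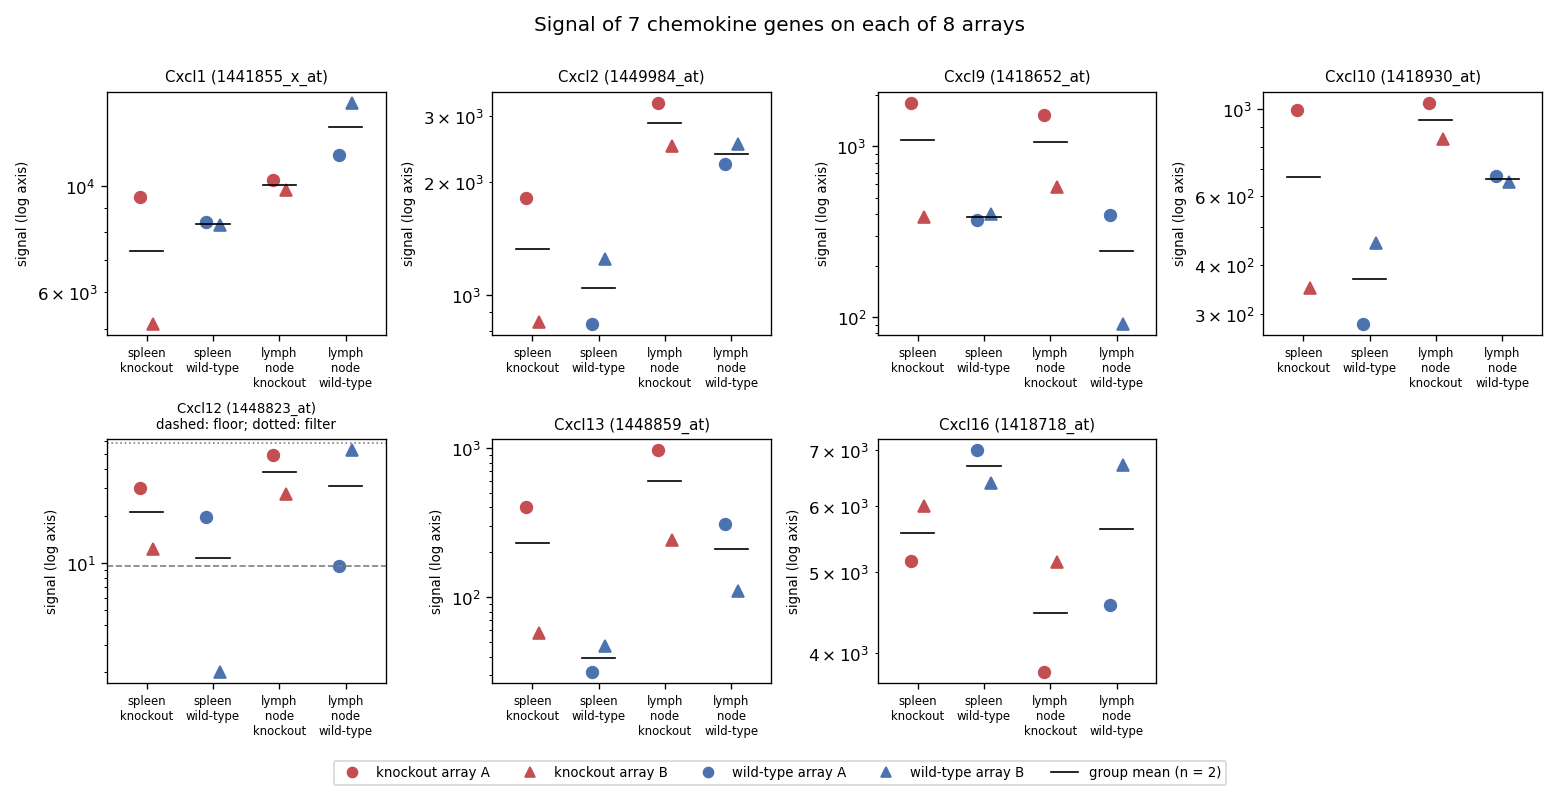
Signal (log axis) of the brightest probe set of each of 7 chemokine genes on the 8 arrays, with knockout in red and wild-type in blue, circles for arrays A and triangles for arrays B, and bars for group means (n = 2). Knockout array A of spleen stands apart from knockout array B for Cxcl9, Cxcl10 and Cxcl13, and Cxcl12 stays under the filter level of 59.0 on every array.

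By the brightest probe set, Cxcl9 had the largest averaged difference among the tested members, just above Cxcl13, which differed more in spleen. Its brighter probe set, 1418652_at, had signals of 1802 on A and 385 on B in knockout spleen, against 372 on A and 401 on B in wild-type spleen. In lymph node the signals were 1535 on A and 581 on B in knockout, against 394 on A and 90.4 on B in wild-type. The groups overlapped in spleen, where knockout array B lay between both wild-type arrays, and did not overlap in lymph node.

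The group means of Cxcl9 were 1093 ± 1001 in knockout and 387 ± 20.4 in wild-type spleen (SD, n = 2 each), and 1058 ± 674 in knockout and 242 ± 215 in wild-type lymph node (SD, n = 2 each). The difference was 1.11 ± 0.95 (SE) in spleen and 2.32 ± 0.95 in lymph node. Averaged it was 1.72 ± 0.67, with a 95% interval from 0.13 to 3.30. In spleen it rested on knockout array A: without that array it was -0.00496, and the averaged difference was then 1.16. Without both knockout A arrays the averaged difference was 0.81.

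The second probe set of Cxcl9, 1456907_at, was dimmer, with 5 of 8 arrays above the filter level. It had signals of 196 and 110 in knockout spleen, against 49.6 and 93.0 in wild-type spleen, and of 259 and 128 in knockout lymph node, against 48.0 and 34.4 in wild-type lymph node. On 1456907_at each knockout array lay above both wild-type ones from its tissue, as was found for 2.98% of the 21806 probe sets tested. Its differences were 1.12 ± 0.53 in spleen and 2.16 ± 0.53 in lymph node, close to those of the brighter probe set. The averaged difference of 1.64 ± 0.38 had a limma adjusted p of 0.399 over all probe sets.

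Cxcl10, encoded next to Cxcl9 on chromosome 5 and likewise induced by interferons, had 1 probe set. Its signals were 994 on A and 349 on B in knockout spleen, against 283 on A and 456 on B in wild-type spleen. In lymph node they were 1034 and 836 in knockout, against 673 and 652 in wild-type. Both genotypes overlapped in spleen and were apart in lymph node, by a smaller ratio than for Cxcl9. The difference was 0.72 ± 0.53 in spleen, -0.0383 without knockout array A, and 0.49 ± 0.53 in lymph node. Averaged it was 0.60 ± 0.38, with a 95% interval from -0.29 to 1.49 (adjusted p = 0.721).

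Cxcl13, the follicular B cell attractant, had an averaged difference close to that of Cxcl9, with a wider gap between the arrays of each knockout group. Its brighter probe set, 1448859_at, had signals of 402 on A and 57.5 on B in knockout spleen, against 31.6 and 46.8 in wild-type spleen. In lymph node they were 964 on A and 244 on B in knockout, against 311 on A and 110 on B in wild-type. The groups did not overlap in spleen, although knockout array B lay just above wild-type array B, and they overlapped in lymph node.

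The group means of Cxcl13 were 230 ± 244 in knockout and 39.2 ± 10.8 in wild-type spleen (SD, n = 2 each), and 604 ± 509 in knockout and 210 ± 142 in wild-type lymph node (SD, n = 2 each). The difference was 1.98 ± 1.05 in spleen and 1.39 ± 1.05 in lymph node. Averaged it was 1.69 ± 0.75, with a 95% interval from -0.08 to 3.45 (adjusted p = 0.642). Without spleen knockout array A it was 0.99, without lymph node wild-type array B 1.31, and without both knockout A arrays 0.49.

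The other probe set of Cxcl13, 1417851_at, was at or under the floor on both wild-type spleen arrays and on knockout spleen array B. Knockout spleen array A stood at 217. Its averaged difference was 2.56 ± 0.99 (adjusted p = 0.637 over all probe sets) and its lymph node difference 2.87 ± 1.41, above the 1.69 and 1.39 of 1448859_at. In lymph node it had signals of 446 and 132 in knockout, against 63.3 and 17.4 in wild-type, which did not overlap. The order of the 4 lymph node arrays thus differed between the 2 probe sets of Cxcl13 in 1 place: knockout array B lay above wild-type array A on 1417851_at and below it on 1448859_at.

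**Figure D2:**
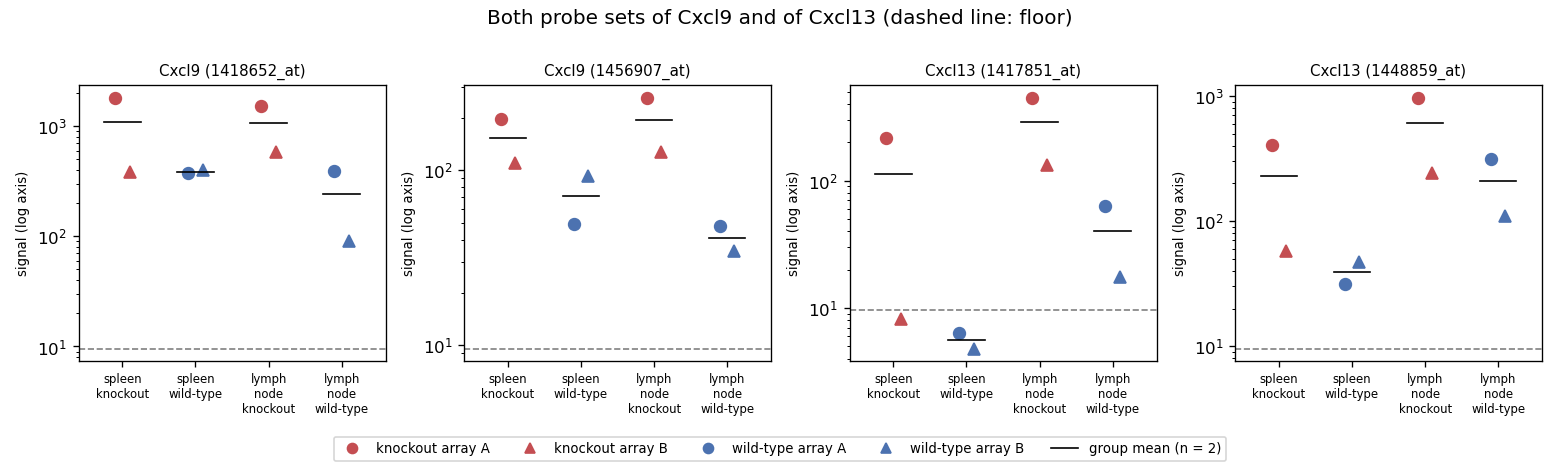
Signal (log axis) on the 8 arrays for both probe sets of Cxcl9 and both of Cxcl13, with knockout in red left of wild-type in blue and the floor of 9.58 dashed. The dimmer Cxcl9 probe set, 1456907_at, is higher on every knockout array than on the wild-type arrays of its tissue, while 1418652_at overlaps in spleen.

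The neutrophil attractants Cxcl1 and Cxcl2 differed less between the genotypes. Cxcl2 had signals of 1807 on A and 847 on B in knockout spleen, against 835 and 1245 in wild-type spleen. In lymph node they were 3245 and 2487 in knockout, against 2229 and 2515 in wild-type. Groups overlapped in both tissues. The averaged difference was 0.27 ± 0.32, with a 95% interval from -0.48 to 1.02 (adjusted p = 0.862), and it was -0.10 without both knockout A arrays.

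Cxcl1 had 3 probe sets. The brightest, 1441855_x_at, had signals of 9472 and 5127 in knockout spleen, against 8384 and 8279 in wild-type spleen. In lymph node they were 10265 and 9802 in knockout, against 11607 and 14907 in wild-type. The groups did not overlap in lymph node, where knockout was lower, and all 3 probe sets of Cxcl1 showed this order. The averaged difference was -0.32 ± 0.27 on 1441855_x_at (adjusted p = 0.793), -0.32 on 1419209_at and -0.31 on 1457644_s_at. Probe sets with the endings _x_at and _s_at can match more than 1 transcript.

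Cxcl16, the membrane-bound chemokine, had signals of 5154 and 5997 in knockout spleen, against 6993 and 6402 in wild-type spleen. In lymph node they were 3801 and 5145 in knockout, against 4566 and 6710 in wild-type. Knockout was lower without overlap in spleen and overlapped in lymph node. The second probe set, 1449195_s_at, overlapped in both tissues. The averaged difference was -0.30 ± 0.24 (adjusted p = 0.791), with a 95% interval from -0.87 to 0.28, and -0.18 on the second probe set.

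By the brightest probe set of each gene, groups were apart for 2 of 6 members in spleen, Cxcl13 higher and Cxcl16 lower in knockout. They were apart for 37.2% of all genes there, 13.3% higher and 23.9% lower. In lymph node they were apart for 3 of 6, Cxcl9 and Cxcl10 higher and Cxcl1 lower in knockout, against 30.9% of all genes, 14.6% higher and 16.2% lower. No member was apart in the same direction in both tissues, as 8.75% of all genes were.

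**Figure D3:**
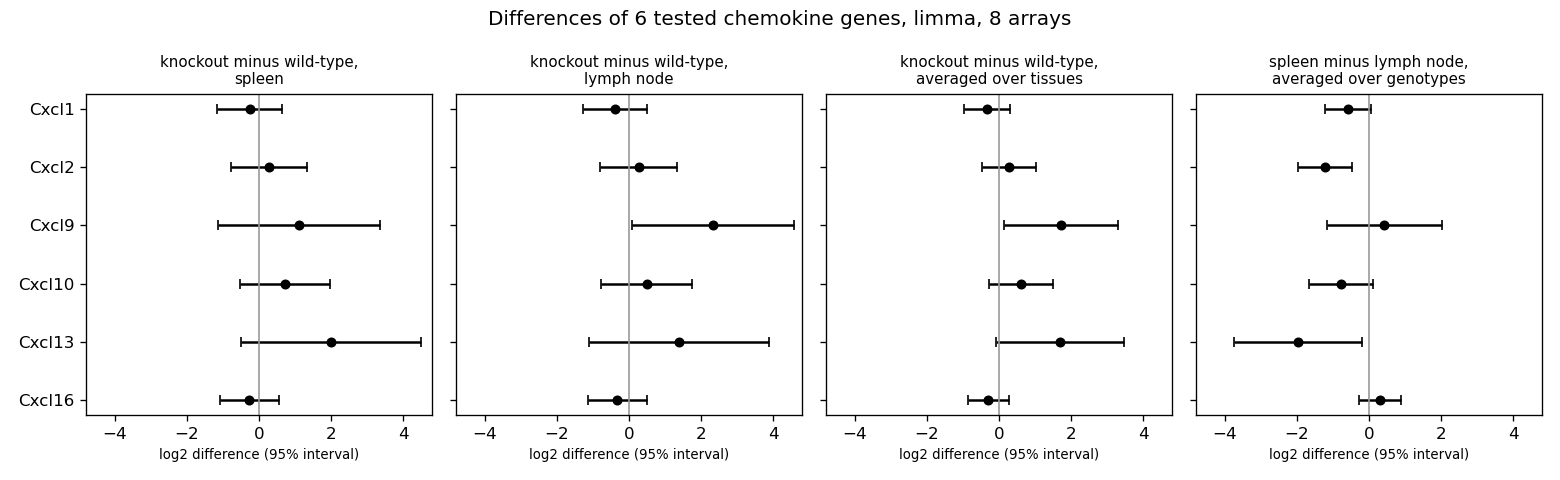
Log2 differences of the 6 tested chemokine genes with their 95% intervals, from limma on 8 arrays, for knockout minus wild-type in spleen, in lymph node and averaged, and for spleen minus lymph node. The interval leaves out 0 for Cxcl9 in lymph node and averaged, and for Cxcl2 and Cxcl13 between the tissues, before adjustment over all genes.

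Cxcl12, the ligand of Cxcr4, had 3 probe sets, all under the filter level of 59.0 on every array. Their signals ran from 2.29 to 31.6 on 1417574_at, from 4.54 to 24.7 on 1439084_at, and from 2.01 to 52.5 on 1448823_at. On the last of these, knockout spleen had 30.3 and 12.2 against 19.6 and 2.01 in wild-type, and knockout lymph node had 48.8 and 27.8 against 9.60 and 52.5 in wild-type. These groups overlapped in both tissues. On 1439084_at they did not, with knockout above wild-type in spleen and below it in lymph node, but 3 of its 8 arrays were at the floor. No fold change is given for Cxcl12. The stromal collagen gene Col3a1 and the matrix proteoglycans Dcn and Lum, markers of the reticular fibroblasts that make Cxcl12, Cxcl13 and Ccl19 in lymphoid organs, were also under the filter level on every array. Of the 12 reticular fibroblast markers 8 were tested, among them the collagen gene Col1a1 with signals up to 180 and the growth factor receptor Pdgfrb up to 216.

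The knockout effect was then compared between the tissues. Cxcl9 differed most, with a spleen effect minus lymph node effect of -1.21 ± 1.34 on the log2 scale. Its 95% interval ran from -4.39 to 1.96. By the brightest probe set, the differences of the other 5 members lay between 0.02 for Cxcl2 and 0.59 for Cxcl13. The sign was negative on the second probe set of Cxcl13, 1417851_at (-0.62 ± 1.99), and on that of Cxcl16, 1449195_s_at (-0.004). It was kept on 1456907_at of Cxcl9 (-1.05) and on 1419209_at and 1457644_s_at of Cxcl1 (0.32 and 0.24). For all 6 members the adjusted p was 0.999, and 0 of them had an unadjusted p under 0.05 by limma, where 3.42% of all genes did and 0% passed.

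The second comparison set spleen against lymph node over both genotypes. Cxcl13, Cxcl2, Cxcl10 and Cxcl1 had lower signals in spleen, and Cxcl16 and Cxcl9 higher ones. Cxcl13 stood 3.91-fold and Cxcl2 2.31-fold below the lymph node level. None of the 6 passed adjustment over all genes by limma, as 0% of all genes did, and 2 of 6, Cxcl2 and Cxcl13, had an unadjusted p under 0.05, against 10.7% of all genes.

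For Cxcl2, the spleen signals given above lay between 835 and 1807 and the lymph node signals between 2229 and 3245, without overlap. The difference, spleen minus lymph node on the log2 scale, was -1.21 ± 0.32, with a 95% interval from -1.96 to -0.46 (unadjusted p = 0.0067, adjusted p = 0.285). It was -1.20 within the knockout arrays and -1.22 within the wild-type arrays. Leaving out 1 array at a time gave values from -1.48 to -0.93.

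For Cxcl1, the other neutrophil attractant, spleen signals lay between 5127 and 9472 and lymph node signals between 9802 and 14907, also without overlap. The difference was -0.59 ± 0.27 (adjusted p = 0.497). On 1419209_at it was -0.91 ± 0.28, without overlap, and on 1457644_s_at -0.54 ± 0.27, where knockout spleen array A at 8622 exceeded knockout lymph node array B at 8382. Among all genes 1.9% were lower without overlap on all spleen arrays, and 2 of the 6 members were. The GGGAATTTCC run in both their promoter windows is shown above, and no measurement here bears on it.

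The tissue difference of Cxcl13 was -1.97 ± 0.75, with a 95% interval from -3.73 to -0.20 (unadjusted p = 0.0337, adjusted p = 0.424). Spleen knockout array A, at 402, lay above 3 of the 4 lymph node arrays, so the tissues overlapped. Its second probe set gave -2.10 ± 0.99. For Cxcl10 the difference was -0.77 ± 0.38 (adjusted p = 0.529), and for Cxcl16 0.30 ± 0.24 (adjusted p = 0.721). Cxcl9 was at 0.43 ± 0.67, with 1.03 within the wild-type arrays and -0.18 within the knockout arrays.

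Marker levels were read beside these values, since the knockout A arrays carried much of the signal of Cxcl9, Cxcl10 and Cxcl13. In knockout spleen array A exceeded array B by 4.68-fold for Cxcl9, 2.84-fold for Cxcl10 and 7.00-fold for Cxcl13. In knockout lymph node the same ratios were 2.64, 1.24 and 3.95. In wild-type arrays the ratio of A to B was under 1 in spleen for these 3 genes, and 4.36, 1.03 and 2.83 in lymph node.

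The summed signal of 15 macrophage markers was 24786 on A and 3969 on B in knockout spleen, against 4831 on A and 3516 on B in wild-type spleen. In lymph node it was 19341 on A and 8839 on B in knockout, against 9037 on A and 3367 on B in wild-type. The arrays with the highest Cxcl9 and the highest macrophage sum in each tissue were the knockout A arrays. This was not particular to macrophage markers: B cell, reticular fibroblast and blood endothelial sums were also highest on these arrays. The T cell sum was highest on knockout array A in spleen only. By mean log2 signal the T cell list was highest on knockout array A in both tissues, at 6.90 in spleen and 6.88 in lymph node. Epithelial and mature dendritic cell sums were lowest on the knockout A arrays of both tissues. The mean log2 signal of the mature dendritic cell list did not follow its sum in spleen. It was highest there on knockout array A, at 11.185, against 11.125 on knockout array B and 10.896 and 10.925 in wild-type. In lymph node this list mean was lowest on knockout array A, as the sum was. Of 14 macrophage markers tested, 12 had positive averaged differences, with a median of 1.89 against -0.06 for all genes, and 0 passed. At an unadjusted p under 0.05 there were 5 of 14, against 8% of all genes. No marker of the list was at the floor on all arrays. The part of macrophage RNA in the chemokine values was not tested, and in samples of many cells fewer cells of a type and less RNA per cell cannot be told apart.

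Neutrophil markers were high on 1 array. Their sum over 9 genes was 9711 on A and 266 on B in knockout spleen, against 504 and 500 in wild-type spleen, and between 121 and 255 on the 4 lymph node arrays. S100a8, a neutrophil calcium-binding protein, had 2954 on knockout spleen array A and at most 94.5 on any other array. Among the spleen arrays, that array also had the highest Cxcl1 and Cxcl2 signals, 9472 and 1807. The lymph node arrays, higher in both genes, had lower neutrophil sums than the spleen arrays. The tissue difference of Cxcl2 was -1.48 without spleen knockout array A. The part of neutrophil RNA in the chemokine values was not tested.

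**Figure D4:**
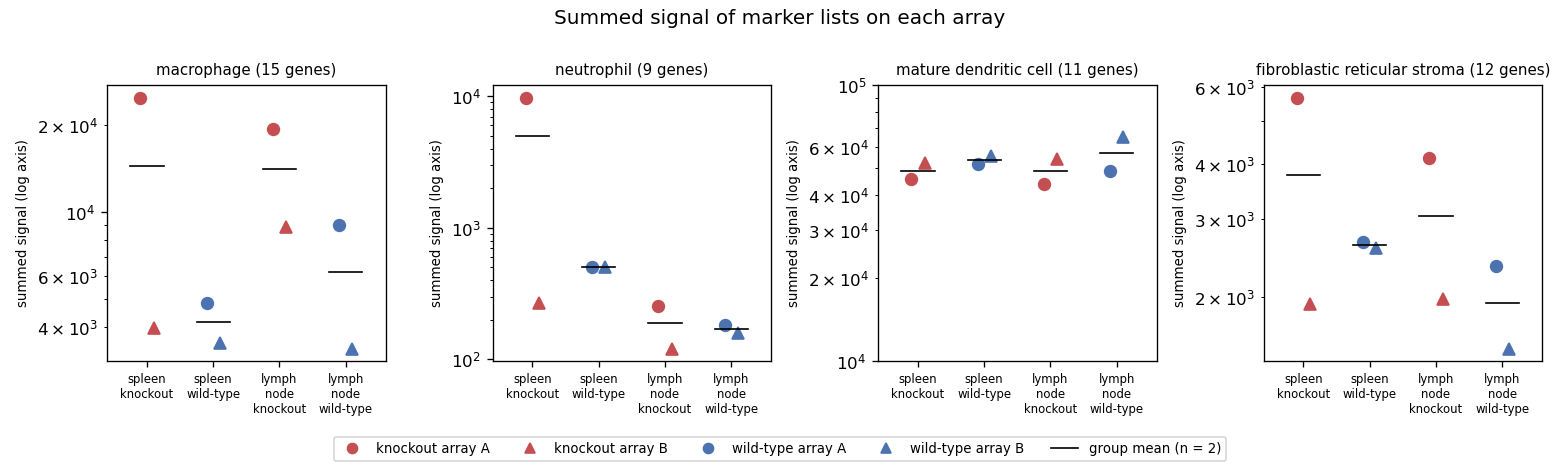
Summed signal (log axis) of 4 marker lists on each array, with knockout in red left of wild-type in blue, circles for arrays A, triangles for arrays B and bars for group means (n = 2). The macrophage sum reaches 24786 and 19341 on the knockout A arrays of spleen and lymph node, and the neutrophil sum is 9711 on spleen knockout array A alone.

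Of the other lists, B cell markers had a sum of 1963 and 265 in knockout spleen, against 558 and 665 in wild-type spleen, and of 973 and 327 in knockout lymph node, against 565 and 291 in wild-type. The sum of 12 reticular fibroblast markers was 5656 and 1921 in knockout spleen, against 2657 and 2573 in wild-type spleen, and 4122 and 1971 in knockout lymph node, against 2346 and 1524 in wild-type. Most of it came from Vcam1 and Thy1, which other cells also express. The sum of 8 follicular dendritic cell markers was 12573 and 11617 in knockout spleen, against 15435 and 16494 in wild-type spleen, and 11094 and 12301 in knockout lymph node, against 12800 and 17639 in wild-type. Most of this sum came from Clu and Mfge8, with averaged differences of -0.70 and -0.65, while Bst1, Madcam1 and Prnp had 0.99, 0.87 and 0.41. The mean log2 signal of the list was 8.34 and 8.20 in knockout spleen, against 8.27 and 7.92 in wild-type spleen, so the lower knockout sum in spleen did not extend to the list mean. Mature dendritic cell markers summed to between 43833 and 64889 on all arrays. Most of this sum came from Ccr7, Fscn1 and Cd83, so it says little of the dimmer genes. Of 10 tested, 4 had positive and 6 negative averaged differences and 0 passed. Cd86 differed by 1.41 (limma adjusted p = 0.55).

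The receptors of these chemokines were read from the same fit. Of 10 receptors measured 8 were tested, 0 passed for the averaged knockout difference, 3 had positive and 5 negative differences, and their median was -0.30 against -0.06 for all genes. Ackr3, the scavenging receptor for Cxcl12, had signals of 5168 and 6898 in knockout spleen, against 9794 and 9876 in wild-type spleen. In lymph node it had 1906 and 3442 in knockout, against 4491 and 6042 in wild-type. It was lower on each knockout array than on both wild-type arrays of its tissue, as were Cxcr5, Ccr7 and Cxcr4. Of all genes, 8.75% were apart in the same direction, higher or lower, in both tissues. The averaged difference of Ackr3 was -0.87 (limma adjusted p = 0.502) and its tissue difference 1.07 (limma adjusted p = 0.285). The vessel scavenger Ackr1 had a tissue difference of -0.57 (adjusted p = 0.461).

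Cxcr5, the Cxcl13 receptor of B cells and follicular helper T cells, had 150 and 243 in knockout spleen, against 351 and 834 in wild-type spleen, and 61.0 and 164 in knockout lymph node, against 167 and 193 in wild-type. Its averaged difference was -1.17 (adjusted p = 0.564), opposite in sign to that of its ligand. The scavenger of Ccl19, Ackr4, differed by -0.37 (adjusted p = 0.724). Ccr7, the receptor for Ccl19, differed by -0.43 (adjusted p = 0.696), and Cxcr4, the receptor for Cxcl12, was bright on all arrays and differed by -0.23 (adjusted p = 0.814). Cxcr3, the receptor for Cxcl9 and Cxcl10, had 216 and 26.7 in knockout spleen, against 38.6 and 1.21 in wild-type spleen, and 66.9 and 25.9 in knockout lymph node, against 33.1 and 99.4 in wild-type. Cxcr2, the receptor for Cxcl1 and Cxcl2, passed the filter level on 1 array, knockout spleen A at 87.9. Cxcr6, the receptor for Cxcl16, stayed between 15.0 and 52.9.

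Of the interferon-gamma pathway 6 of 8 measured genes were tested, 0 passed, and 2 had positive and 4 negative averaged differences (median -0.20). The receptor chains Ifngr1 and Ifngr2 differed by 0.60 (adjusted p = 0.716) and -0.39 (adjusted p = 0.709), the transcription factors Irf8 and Irf1 by -0.42 (adjusted p = 0.738) and -0.26 (adjusted p = 0.838), and the kinase Jak2 by 0.31 (adjusted p = 0.795). Ifng itself exceeded the filter level on 1 array, wild-type spleen A at 157. Only Ifngr1 and Jak2 of the 6 shared the positive sign of Cxcl9 and Cxcl10.

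Of the lymphotoxin and alternative NF-kB genes, which control the stromal homeostatic chemokines, 8 of 9 measured were tested, 0 passed, and 3 had positive and 5 negative averaged differences (median -0.24). The other chain Ltb differed by -0.80 (adjusted p = 0.617), the kinase Map3k14 by -0.57 (adjusted p = 0.666) and the NF-kB subunit Relb by -0.39 (adjusted p = 0.727). Between the tissues, the lymphotoxin chain Lta had a spleen minus lymph node difference of 1.14 (adjusted p = 0.285), the opposite sign to Cxcl13. The lymphotoxin receptor Ltbr differed by 1.19 between the genotypes (limma adjusted p = 0.776), with 3 of its 8 arrays at the floor.

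Of the genes that act upstream of neutrophil chemokines 9 of 11 measured were tested, 0 passed, 6 had positive and 3 negative averaged differences (median 0.14), and the adaptor Myd88 differed by 1.57 (adjusted p = 0.696). For the tissue difference 7 of the 9 were negative, as for Cxcl1 and Cxcl2, with a median of -0.10 against 0.06 for all genes, and 0 passed. The cytokine Il1b had 1703 and 710 in knockout spleen, against 245 and 963 in wild-type spleen, and 2050 and 2278 in knockout lymph node, against 1864 and 1787 in wild-type. All 4 spleen arrays lay under all 4 lymph node arrays, with a tissue difference of -1.44 (adjusted p = 0.38). The interleukin-1 receptor Il1r1 differed by -1.20 (adjusted p = 0.465) and the NF-kB cofactor Nfkbiz by -0.59 (adjusted p = 0.478).

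Of the enzymes that trim or shed chemokines 4 of 8 measured were tested and 0 passed in either comparison. Dpp4, the peptidase that cuts the amino end of several chemokines, differed by 0.20 (adjusted p = 0.87) between the genotypes and by -0.70 (adjusted p = 0.404) between the tissues. The Cxcl16 sheddases Adam10 and Adam17 differed by -0.00 (adjusted p = 0.998) and -0.25 (adjusted p = 0.826) between the genotypes.

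Of 13 other CXC, C, CX3C and homeostatic CC chemokines measured 5 were tested, and 0 passed for the averaged knockout difference. The platelet chemokine Pf4 had the largest value at 3.28 (adjusted p = 0.327), and the thymic and gut chemokine Ccl25 was at -0.92 (adjusted p = 0.534). Cxcl3 and Cxcl5, which like Cxcl1 and Cxcl2 act through Cxcr2, stayed at most at 28.6 and 13.3. Cxcl11, the third interferon-inducible ligand of Cxcr3, stayed at most at 38.7, under the filter level on every array.

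Across the 8 arrays the log2 signals of Cxcl10 and Cxcl13 had a Pearson r of 0.93, and those of Cxcl2 and Cxcl10 one of 0.90. Cxcl16 ran opposite to Cxcl13, with r = -0.92. Cxcl9 and Cxcl10 had r = 0.50. These are descriptions over 8 arrays that share tissue, genotype and processing.

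The tested genes most like each member by Pearson r over the 8 arrays were picked from all 11557. For Cxcl2 they were Dpp4 (r = 0.99), Fstl1 (0.98) and Txnip (0.98). For Cxcl9 they were the phosphatase Dusp6 (0.99), Lyl1 (0.97) and Prmt5 (0.96), and for Cxcl10 the hyaluronan synthase Has2 (0.99), Flt4 (0.98) and Nrm (0.97). For Cxcl13 they were Anxa6 (0.97), Cntn1 (0.97) and the transcription factor Cebpa (0.97). For Cxcl1 they were Nprl3 (0.98), Rsrc2 (0.98) and Calcoco1 (0.97), and for Cxcl16 Zscan26 (0.99), Ssh1 (0.97) and Clip1 (0.97). With 8 arrays and many genes, values of this size were reached for every member.

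Has2, for example, had signals of 4352 and 1614 in knockout spleen, against 1109 and 1893 in wild-type spleen, and of 4706 and 3378 in knockout lymph node, against 3376 and 2577 in wild-type, and both highest values were on the knockout A arrays, as for Cxcl10. Cebpa had 541 and 123 in knockout spleen, against 81.0 and 90.4 in wild-type spleen, and 730 and 249 in knockout lymph node, against 488 and 263 in wild-type, the same order of lymph node arrays as for Cxcl13 except for the lowest 2.

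**Figure D5:**
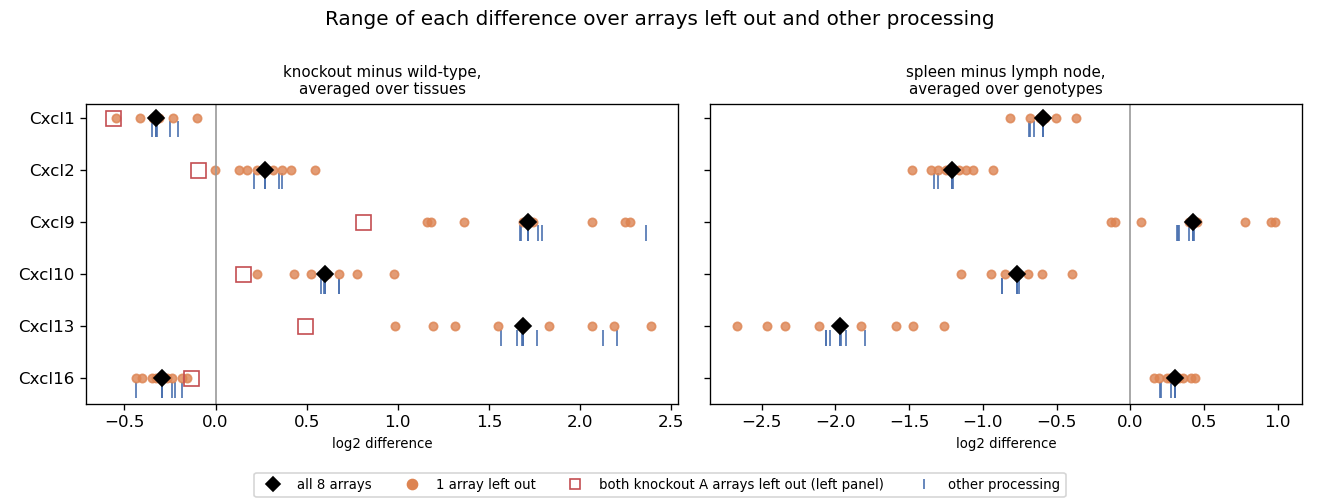
Log2 difference of each tested chemokine gene with all 8 arrays (diamonds), with 1 array left out (circles), with both knockout A arrays left out (open squares, left panel) and under other processing (ticks), for knockout minus wild-type on the left and spleen minus lymph node on the right. Without both knockout A arrays the averaged knockout difference of Cxcl9 is 0.81, against 1.72 with all arrays, that of Cxcl13 is 0.49, against 1.69, and that of Cxcl2 is -0.10, against 0.27.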

How the data were processed

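RNA from 8 mouse samples was measured on Affymetrix arrays. The authors deposited intensity values, 1 linear signal per probe set, made with MAS5 per the submitters' processing notes, with no version given there. The 2% trimmed mean of every array was 250, so the arrays had been scaled before deposition. Of 45101 probe sets 64 controls were left out, and 34945 of the rest had 1 symbol, 932 several and 9160 none. Symbols come from the platform annotation, updated through gene identifiers in RefSeq.

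The array medians, which ranged over 0.28 on the log2 scale, were set equal. A floor of 9.58, percentile 20 of the pooled signals, was applied before taking log2. Each of 18193 genes was represented by its probe set with the highest mean. Testing covered the 11557 genes that exceeded 59.0, the median of all signals, on 2 or more arrays, with limma 3.58.1 in R 4.3.3: a mean for each of 4 groups, moderated by empirical Bayes, with 4 residual and 2.96 prior degrees of freedom. A call needed an adjusted p (Benjamini-Hochberg, all tested genes) under 0.05. A fold at or near the floor understates a change. The number of arrays limits the precision.

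The chemokines, the 17 lists (168 entries, 157 matched to a probe set) and the alternatives were chosen with earlier results of these data known. All members were named, with up to 4 genes of a pathway list by smallest p for the averaged or the tissue difference and the 3 genes most alike to each member. The other receptors and ligands, Ifng, Irf1 and single marker genes were named after their values were seen. Lists were described by counts, medians and sums, with no set test. The procedure was tested on simulated data. The A minus B differences of the 4 groups correlated between 0.06 and 0.31 over genes for the 6 pairs of groups, so the letters were not taken to pair the samples across genotypes. Spleen and lymph node arrays of the same genotype and letter shared their pattern of Xist and Y-linked signals and may come from the same animals, which the labels do not state. The fit treats all 8 arrays as independent. If animals are shared, p-values of the averaged knockout difference are too small.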

Additional observations from a re-analysis of the deposited data

How the results depend on the processing

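Over 618 recomputed values of 30 differences (6 genes in 5 comparisons), 593 kept their direction and none passed an adjusted p under 0.05. The lowest adjusted p, 0.0776, was that of Cxcl2 between the tissues with a trended robust prior. No member was called under any alternative; over all genes that prior called 1 gene in spleen, 6 for the averaged knockout difference and 48 between the tissues, and a floor at the 40th percentile called 2 and 3 for the last pair, against 0 in each with the settings reported. Leaving out spleen knockout replicate B called 2 for the averaged difference, and quantile normalization, no median scaling, no filter and the mean of probe sets each called 1 between the tissues.

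With 1 array left out, the knockout difference in spleen ranged from -0.70 to 0.19 for Cxcl1, from -0.27 to 0.83 for Cxcl2, from -0.00496 to 2.22 for Cxcl9 and from -0.0383 to 1.47 for Cxcl10, and the averaged difference of Cxcl2 from -0.00196 to 0.54. The spleen minus lymph node difference in the knockout effect ranged from -0.31 to 0.58 for Cxcl1, -0.53 to 0.56 for Cxcl2, -0.53 to 0.98 for Cxcl10, -0.81 to 1.99 for Cxcl13 and -0.22 to 0.33 for Cxcl16, and the tissue difference of Cxcl9 from -0.13 to 0.98. Fewer arrays entered these fits. Without both knockout A arrays the averaged Cxcl2 difference was -0.10. For the mean of probe sets the Cxcl13 difference between the tissues' knockout effects was -0.0155. That value is the mean of 0.59 on 1448859_at and -0.62 on 1417851_at. The cause of the Cxcl2 change and of the opposite signs of these probe sets was not tested. When arrays were left unscaled, the median knockout difference over all genes in spleen was 0.02, against -0.09 with it.

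With the letter as a replicate block the averaged Cxcl9 difference was 1.72 (adjusted p = 0.293), and with arrays of the same genotype and letter as pairs across tissues the tissue differences of Cxcl2 and Cxcl13 were -1.21 and -1.97 (adjusted p = 0.245 for each); the block changed no call among the members. With Y-linked signal as a covariate, the averaged Cxcl9 difference was 2.36 (adjusted p = 0.41).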
